A study of Mus musculus with 14 samples.

Results

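The genes described here encode 9 acute phase proteins: lipopolysaccharide binding protein (*Lbp*), haptoglobin (*Hp*), hemopexin (*Hpx*), serum amyloid A (*Saa1*, *Saa2* and *Saa3*), orosomucoid (*Orm1* and *Orm2*) and C-reactive protein (*Crp*). They were chosen by name, and all 9 were found among the 28022 genes of the deposited count matrix. The matrix holds 14 mouse RNA-seq libraries, 2 for each of 7 conditions, all labelled C57BL/6J. Fib libraries came from mouse embryonic fibroblasts. The 2D-iHepSC libraries came from induced hepatic stem cells (iHepSCs), which were converted from such fibroblasts with lentiviral *Oct4* and *Hnf4α* and grown as a monolayer. In 2D-iHepSCiEC the same cells shared the dish with induced endothelial cells (iECs), obtained by expressing *ETV2* in HF1 cells, a line of human fibroblasts. The 3D-iHA libraries came from spheroids of iHepSCs alone in a hydrogel of Matrigel and type I collagen, which the study calls organoids (iHLOs), and the 3D-iHEA libraries from assembloids in which the hydrogel also held iECs. The study describes its 3D cultures at 14 days, and its paper does not state the day of the sequenced libraries. By the study, the medium of all 4 culture conditions, 2D and 3D, contained oncostatin M, a cytokine of the IL-6 family, together with bFGF and VEGF. Adult-Liver and Fetal-Liver were whole tissues, which the study's PCR methods describe as from mice of 6 weeks and from mid-gestation embryos. Reads were counted on mouse genes only, so RNA of the human iECs could be counted only where it aligned to the mouse genome.

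Acute phase proteins are plasma proteins whose hepatic synthesis changes during infection or tissue injury. IL-6 and the related cytokines oncostatin M and LIF signal through the receptor subunit gp130 and STAT3, IL-1 and bacterial products signal through NF-kB, and C/EBP factors act at the promoters of many acute phase genes. In the mouse, the serum amyloid A proteins, haptoglobin and orosomucoid respond strongly, whereas C-reactive protein, a major acute phase protein in humans, responds weakly.

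The total count per library ranged from 20851489 to 35143325, and 3 counts were taken as the limit of detection, which covers counting error only. Levels are given as CPM, the count divided by the library total and scaled to a common depth, and levels of different genes are compared only per kilobase of transcript (RPKM). In the Adult-Liver libraries a few secreted proteins took up much of the RNA, and TMM normalization gave them factors of 0.429 and 0.438 against 1.11 to 1.20 in the other 12 libraries. Adult-Liver therefore stood lower against the cultures in CPM than after TMM scaling, and both scales are given where this matters. A pair of culture libraries stood apart from their partners. The first 2D-iHepSC library had 210 *Alb* counts against 9, 43 *Fga* counts against 0 and 22 *Fgb* counts against 0 in the second, and the first 3D-iHEA library differed from the unnumbered one by a chi-square of 11.5 per gene, where the other culture pairs had 3.44 to 3.67 and the Fetal-Liver pair 13.4. The column name of the unnumbered 3D-iHEA library carries 2 different numbers, so it is named without one. Every label reads replicate 1, so the spread between the libraries of a condition may be technical. The fit of 3D against 2D grouped libraries by 3D or 2D only, so its p-values measure the spread among libraries that merge 2 conditions on each side. In the other fits the spread of a gene was pooled over all conditions in the fit, also those outside the comparison.

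*Lbp* encodes a plasma protein that carries bacterial lipopolysaccharide to CD14 and TLR4. Among the 7 conditions it was the only member with its highest level in a culture on both scales (the plot of all members by library). The gene lies on chromosome 2 of GRCm38 from 158306493 to 158332852. Its counts were 33461 and 32101 in 3D-iHA and 29004 and 26270 in 3D-iHEA. In 2D-iHepSC they were 1753 and 1552, and in 2D-iHepSCiEC they were 2750 and 1508. All 4 3D libraries stood far above all 4 2D libraries. Fib libraries had 531 and 467 *Lbp* counts, Fetal-Liver libraries 1199 and 850, and Adult-Liver libraries 4019 and 4294. The level was 1153 ± 9.73 CPM (SD, n = 2) in 3D-iHA, 1059 ± 65.9 in 3D-iHEA, 120 ± 3.90 in Adult-Liver, 75.3 ± 4.19 in 2D-iHepSCiEC, 53.1 ± 0.040 in 2D-iHepSC, 37.7 ± 5.87 in Fetal-Liver and 16.5 ± 0.585 in Fib. No neighbours in this order overlapped, and the order was the same after TMM scaling, where 3D-iHA had 986 and Adult-Liver 286.

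**Figure D1:**
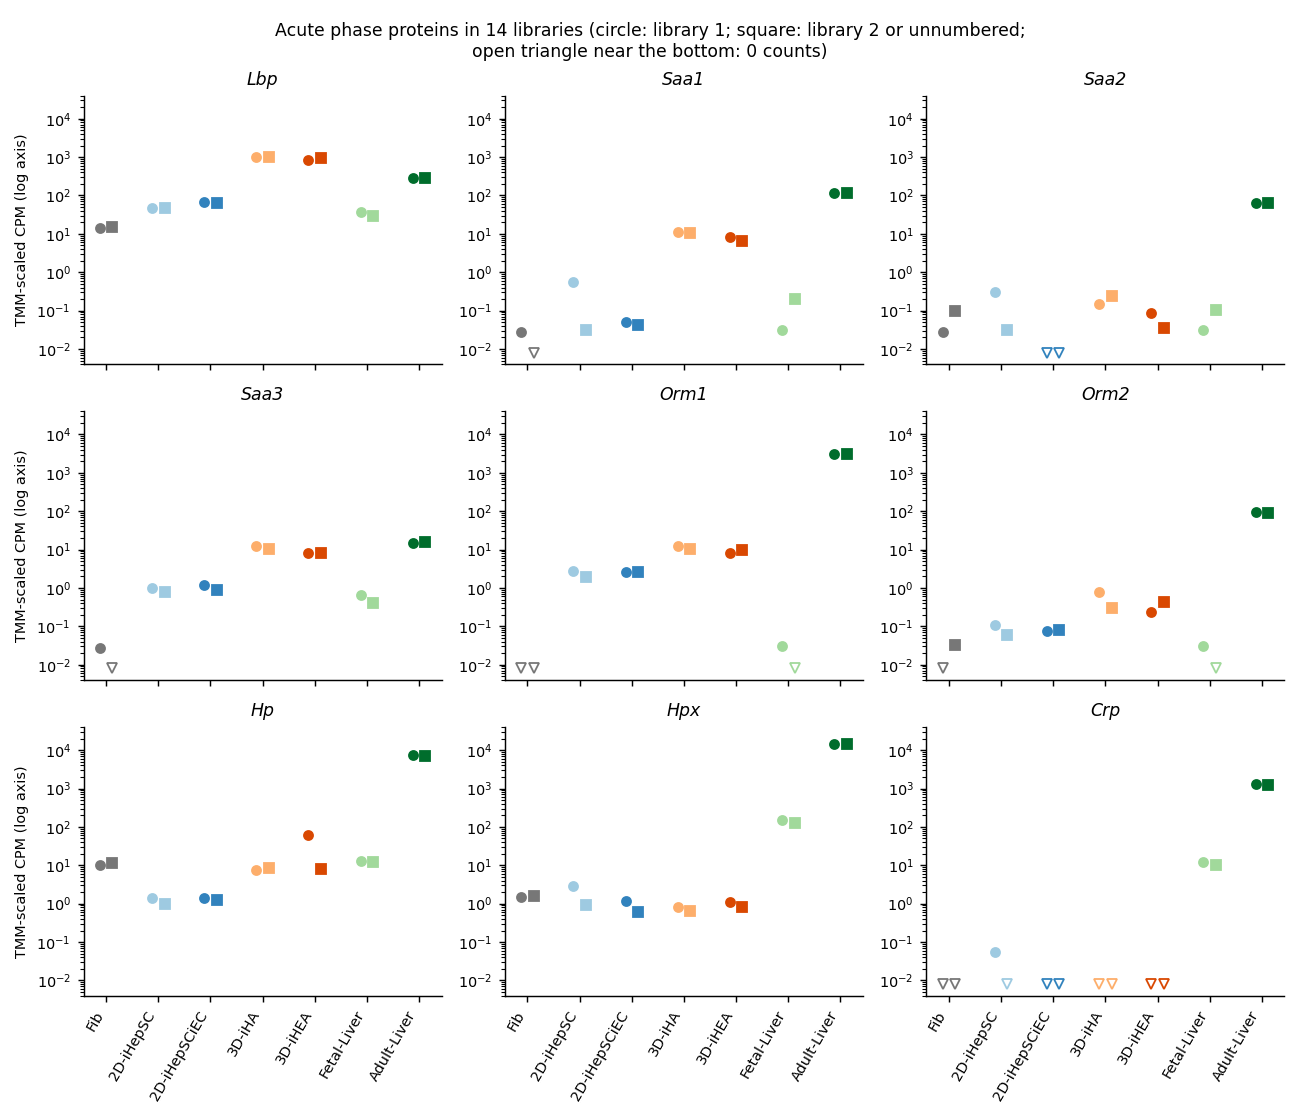
TMM-scaled CPM on a log axis for each of the 9 members in the 14 libraries, with 1 symbol per library and open triangles for libraries with 0 counts. *Lbp* was highest in the 3D cultures at 858 to 994, whereas the other 8 members were highest in Adult-Liver on this scale, and *Crp* had 0 counts in all 4 3D libraries.

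The question of the 3D comparisons was how the hydrogel culture changed iHepSCs with and without iECs. Of the 9 members, 6 passed the filter on low counts over the culture libraries (a mean log2(count + 1) of at least 3), and *Saa2*, *Orm2* and *Crp* did not. In 3D against 2D culture, 5 of the 6 were higher in 3D and none was lower (adjusted p under 0.05 from edgeR's quasi-likelihood test), where 38.7% of the 13409 tested genes were higher and 37.2% lower. The median log2 fold change of the 6 members was 3.73, and that of all tested genes was 0.01. With 21, 1, 2 and 1 counts in 2D, *Saa1* passed the filter only through the 3D libraries. It is counted here and in the comparisons within each cell mixture, where its direction was fixed by the filter. The others called higher were *Lbp*, *Saa3*, *Orm1* and *Hp*. *Lbp* was higher by 4.09 ± 0.13 (log2, SE, adjusted p = 1.65e-10 by edgeR). *Hpx* had -0.73 ± 0.41 with an adjusted p of 0.129 by edgeR.

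The comparisons within each cell mixture share no library. Between 3D-iHA and 2D-iHepSC, 5 members were higher and 1 was lower, where 36.9% of all tested genes were higher and 35.3% lower. Between 3D-iHEA and 2D-iHepSCiEC, 5 members were higher and none was lower, against 36% and 34.9% of all tested genes. *Lbp* was 21.3-fold higher in 3D-iHA than in 2D-iHepSC (log2 4.42 ± 0.06, adjusted p = 8.61e-14 by edgeR). It was 13.9-fold higher in 3D-iHEA than in 2D-iHepSCiEC (log2 3.79 ± 0.06, adjusted p = 1.60e-13 by edgeR). Markers of mucosal secretory epithelium moved with these differences: 8 of 9 were over 3 counts in each 3D library and 4 or 5 in each 2D library, and their summed level was 2082 to 3314 CPM in 3D against 10.3 to 30.0 CPM in 2D, with *Bpifa1* at 0 in all 3D libraries. The 7 endothelial markers summed to 474 to 528 CPM in 2D and 1040 to 1572 in 3D, where *Vwf* had 11946 to 25206 counts against 363 to 1010 in 2D, *Pecam1* 9 to 22 and *Kdr* 0 to 4. Among the 8 macrophage markers, *Cd14* was at 64.1 to 88.9 CPM in 2D and 123 to 134 in 3D, while the other 7 summed to 27.0 to 28.7 and 24.6 to 29.8 CPM, with *Marco* at 0. Their part in the members' differences was not tested. In bulk libraries, more cells that express a gene and more of its RNA per cell cannot be told apart.

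**Figure D2:**
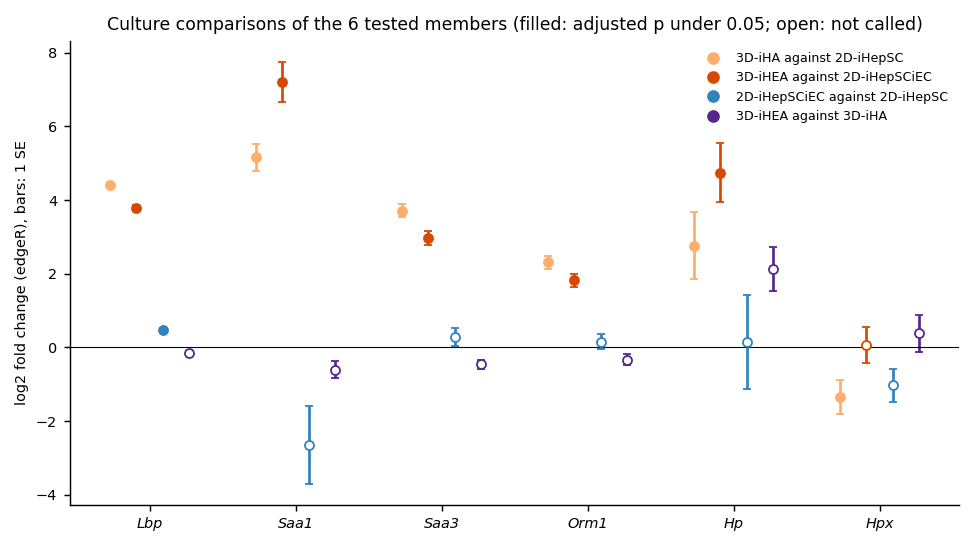
Log2 fold changes of the 6 tested members in 4 comparisons of culture conditions, with bars of 1 SE and filled points for an adjusted p under 0.05. *Lbp*, *Saa1*, *Saa3*, *Orm1* and *Hp* lie between 1.82 and 7.21 in both 3D comparisons, whereas in 3D-iHEA against 3D-iHA no point is filled. The direction of *Saa1* in 3D against 2D was fixed by the filter.

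The serum amyloid A genes encode small apolipoproteins of high-density lipoprotein. They lie in 1 cluster on chromosome 7, with *Saa3* from 46711998 to 46715700, *Saa1* from 46740497 to 46742980 and *Saa2* from 46751790 to 46754313. The 250 bases before each start are shown because *Saa1* and *Saa2* are near-identical there and yet differed in the cultures. They are taken from RefSeq (GRCm38.p6), 5′ to 3′ on the strand of the gene, at chr7:46742981-46743230 (minus strand) for *Saa1*, chr7:46751583-46751832 (plus strand) for *Saa2* and chr7:46715677-46715926 (minus strand) for *Saa3*. The RefSeq starts of *Saa2* and *Saa3* lie inside the gene bounds given above. Capitals mark matches to an NF-kB pattern (GGG, 5 bases of any kind, then CC) on either strand.
Saa1: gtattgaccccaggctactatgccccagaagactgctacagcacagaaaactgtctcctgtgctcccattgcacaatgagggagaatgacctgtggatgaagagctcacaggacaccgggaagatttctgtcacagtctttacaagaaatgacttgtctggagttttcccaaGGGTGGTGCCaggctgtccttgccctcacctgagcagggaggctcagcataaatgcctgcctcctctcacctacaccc
Saa2: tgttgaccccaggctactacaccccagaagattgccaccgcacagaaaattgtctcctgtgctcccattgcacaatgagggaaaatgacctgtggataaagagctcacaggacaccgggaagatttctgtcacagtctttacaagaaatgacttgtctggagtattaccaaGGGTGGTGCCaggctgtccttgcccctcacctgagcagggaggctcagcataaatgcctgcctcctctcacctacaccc
Saa3: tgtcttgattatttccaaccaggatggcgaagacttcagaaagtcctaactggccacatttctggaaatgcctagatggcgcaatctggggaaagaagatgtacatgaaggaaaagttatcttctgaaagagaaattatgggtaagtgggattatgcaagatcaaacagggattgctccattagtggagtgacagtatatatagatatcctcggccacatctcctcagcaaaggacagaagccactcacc
The *Saa1* and *Saa2* stretches were 94.8% identical and held the same match, GGGTGGTGCC, at -78 to -69 and at -79 to -70 from the start. The *Saa3* stretch was 48.5% identical to that of *Saa1* and held no match. In 32851 RefSeq windows from 250 bases before to 50 bases after a start, 50.8% held this pattern, so a match is common. No window of the 6 members listed there (*Hpx*, *Saa1*, *Saa2*, *Saa3*, *Orm2* and *Crp*) held the STAT pattern TTCNNNGAA, which was in 8.30% of all windows. *Lbp*, *Hp* and *Orm1* are not in the table of windows.

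*Saa1* had 383 and 354 counts in 3D-iHA, and 275 and 182 in 3D-iHEA. In 2D-iHepSC it had 21 counts in the first library and 1 in the second, and in 2D-iHepSCiEC it had 2 and 1. The 3D libraries were all above the 2D libraries, and the first 2D-iHepSC library stood above its partner. Since *Saa1* passed the filter only through the 3D libraries, its p-value against 2D does not test the direction. *Saa1* was higher in 3D-iHA than in 2D-iHepSC by a log2 fold change of 5.16 ± 0.37 (adjusted p = 3.87e-08 by edgeR), and without the first 2D-iHepSC library the value was 8.35. With 3 counts in both 2D-iHepSCiEC libraries together, the ratio of 3D-iHEA to 2D-iHepSCiEC was 157 (95% counting interval 53.3 to 764, TMM-scaled). Adult-Liver had 1644 and 1682 *Saa1* counts, Fetal-Liver 1 and 6, and Fib 1 and 0.

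*Saa2* stayed low where *Saa1* rose. It had 5 and 8 counts in 3D-iHA and 3 and 1 in 3D-iHEA, but 888 and 946 in Adult-Liver. The 2D-iHepSC libraries had 11 and 1 counts and the 2D-iHepSCiEC libraries 0 and 0, so *Saa2* was close to the limit of detection throughout the cultures. When the members were added to the tested genes, *Saa2* in 3D against 2D had a log2 difference of 0.58 ± 0.94 (adjusted p = 0.587 by edgeR). Of the 12 *Saa2* counts in 2D, 11 were in the first 2D-iHepSC library, and without it 1 count in 2D stood against 17 in 3D. Of the *Saa1* and *Saa2* counts together, *Saa1* made up 98.7%, 97.8%, 98.9% and 99.5% in the 4 3D libraries, with exact Clopper-Pearson 95% intervals that all began at 95.7% or above. In Adult-Liver it made up 64.9% (63.0% to 66.8%) and 64.0% (62.1% to 65.8%). In the first 2D-iHepSC library it was 65.6% (46.8% to 81.4%), an interval that includes the adult values. The shares compare counts within a library and do not depend on scaling between libraries. The transcripts of the pair are 93.9% identical and share 13.2% of their stretches of 50 bases, and how the counting treated reads that matched both is not given in the sources used here.

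**Figure D3:**
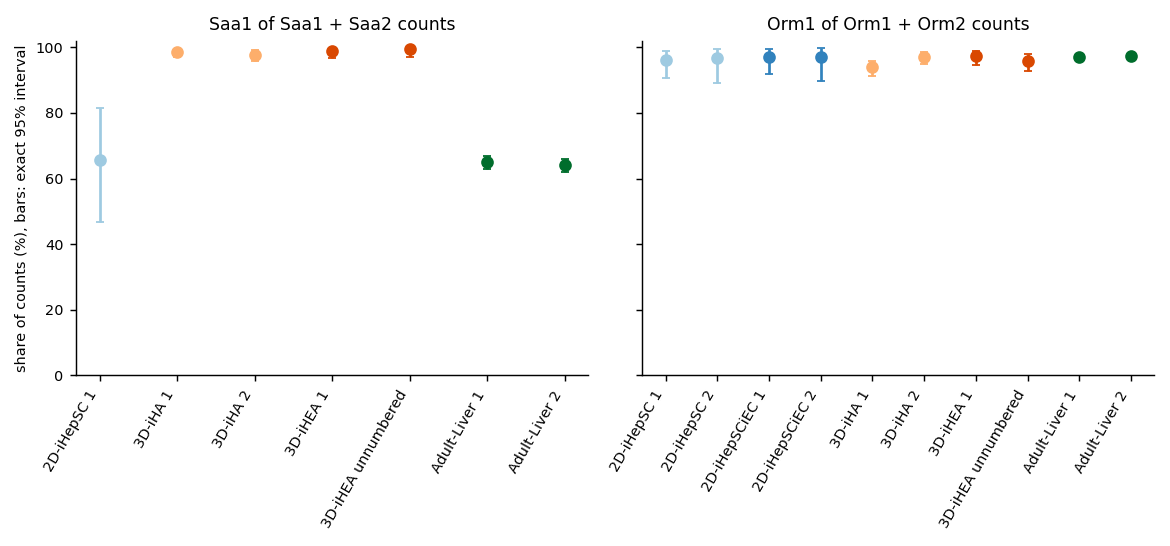
Share of *Saa1* in the *Saa1* and *Saa2* counts and of *Orm1* in the *Orm1* and *Orm2* counts, in percent, for libraries with a sum of at least 10, with exact 95% intervals. *Saa1* made up 97.8% to 99.5% in the 3D libraries and 64.0% to 64.9% in Adult-Liver, whereas *Orm1* made up 93.9% to 97.3% in all libraries shown.

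*Saa3*, which in the mouse is made in many tissues outside the liver as well, had 414 and 341 counts in 3D-iHA and 278 and 234 in 3D-iHEA. The 2D libraries had 37 and 25 in 2D-iHepSC and 47 and 22 in 2D-iHepSCiEC. The groups did not overlap, and the log2 fold changes were 3.71 ± 0.18 in 3D-iHA against 2D-iHepSC (adjusted p = 6.53e-10 by edgeR) and 2.97 ± 0.18 in 3D-iHEA against 2D-iHepSCiEC (adjusted p = 7.22e-09 by edgeR). Adult-Liver had 209 and 238 *Saa3* counts, which gave 6.44 ± 0.50 CPM (SD, n = 2) against 13.3 ± 1.54 in 3D-iHA, but 15.4 against 11.3 after TMM scaling, so the order of 3D-iHA and Adult-Liver turned with the scale. In 3D-iHA, *Saa1* and *Saa3* had similar levels per kilobase, 21.3 and 23.9 RPKM. In Adult-Liver *Saa1* had 78.8 RPKM and *Saa3* 11.6, the lowest of the 9 members there.

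*Orm1* and *Orm2* encode orosomucoids, plasma glycoproteins that bind drugs and lipids. *Orm1* lies on chromosome 4 from 63344560 to 63348163, and *Orm2* from 63362449 to 63365878. *Orm1* had 103 and 62 counts in 2D-iHepSC and 103 and 65 in 2D-iHepSCiEC. It had 418 and 342 counts in 3D-iHA and 282 and 279 in 3D-iHEA, all above the 2D libraries. It was 4.97-fold higher in 3D-iHA than in 2D-iHepSC (log2 2.31 ± 0.17, adjusted p = 5.67e-08 by edgeR) and 3.53-fold higher in 3D-iHEA than in 2D-iHepSCiEC (log2 1.82 ± 0.18, adjusted p = 8.33e-07 by edgeR). Of the 5 members that rose in both 3D comparisons, *Orm1* changed least. *Orm2* had 27 and 10 counts in 3D-iHA, 8 and 12 in 3D-iHEA, 4 and 2 in 2D-iHepSC and 3 and 2 in 2D-iHepSCiEC. It did not pass the filter, and when the members were added to the tested genes the log2 difference of 3D against 2D was 2.41 ± 0.49 (adjusted p = 8.39e-04 by edgeR).

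In contrast to the *Saa1* and *Saa2* pair, *Orm1* kept a narrow share of the *Orm1* and *Orm2* counts, from 93.9% (91.3% to 96.0%) in the first 3D-iHA library to 97.3% (97.1% to 97.4%) in the second Adult-Liver library. The transcripts are 91.0% identical and share 20.4% of their stretches of 50 bases. The *Orm2* promoter is shown because it held the C/EBP match TTTGCGCAA, at -121 to -113, within chr4:63362199-63362448 (plus strand, RefSeq, GRCm38.p6, 5′ to 3′, match in capitals).
Orm2: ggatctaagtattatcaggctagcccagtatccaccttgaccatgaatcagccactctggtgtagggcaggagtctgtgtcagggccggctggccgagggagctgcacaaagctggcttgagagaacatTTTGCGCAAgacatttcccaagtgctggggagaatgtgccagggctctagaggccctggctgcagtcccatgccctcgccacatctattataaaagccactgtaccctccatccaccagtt
The C/EBP pattern TTGCNNNAA, searched on both strands, was in 9.56% of all windows. The only other member with a match was *Saa3*, at 35 to 43 bases after the start. A match describes the letters and not binding.

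*Hp* encodes haptoglobin, which binds free haemoglobin in plasma, and lies on chromosome 8 from 109575128 to 109579172. It had 52 and 32 counts in 2D-iHepSC, 55 and 30 in 2D-iHepSCiEC, 249 and 282 in 3D-iHA, and 2063 in the first and 223 in the unnumbered 3D-iHEA library. All 4 3D libraries were above all 2D libraries, and 1 of them was far above the other 3. *Hp* was 6.80-fold higher in 3D-iHA than in 2D-iHepSC (log2 2.77 ± 0.91, adjusted p = 0.0152 by edgeR), and this call was lost without the first or the second 2D-iHepSC library (adjusted p = 0.0605 and 0.0787) and without the second 3D-iHA library (adjusted p = 0.0571). In 3D-iHEA against 2D-iHepSCiEC the log2 fold change was 4.75 ± 0.79 (adjusted p = 1.38e-04 by edgeR), and it was 2.61 without the first 3D-iHEA library, where *Hp* remained called. In the ratio of the first to the unnumbered 3D-iHEA library, *Hp* ranked 11th of 11526 genes with at least 50 counts, with *Tat* 14th (538 and 62 counts), *Il1r1* 16th (423 and 52) and *C3* 22nd (7868 and 1393). The log2 ratios of the other members were 0.31 for *Saa1* (rank 491), -0.02 for *Saa3* (rank 6363), -0.13 for *Lbp* (rank 9125) and -0.24 for *Orm1* (rank 10621). Neutrophil markers were near 0 in both libraries, at 0.0698 and 0.168 CPM summed over 6 genes.

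*Hpx* encodes hemopexin, which binds free haem, and lies on chromosome 7 from 105591613 to 105600137. It had 106 and 31 counts in 2D-iHepSC, 47 and 15 in 2D-iHepSCiEC, 28 and 21 in 3D-iHA and 37 and 23 in 3D-iHEA, against 208753 and 209076 in Adult-Liver. The ranges of the culture conditions overlapped except for 2D-iHepSC and 3D-iHA. *Hpx* was lower in 3D-iHA than in 2D-iHepSC (log2 -1.35 ± 0.46, adjusted p = 0.0181 by edgeR), and this call was lost without the first 2D-iHepSC library (log2 -0.34, adjusted p = 0.523) and without the second 3D-iHA library (log2 -1.17, adjusted p = 0.107). Between 3D-iHEA and 2D-iHepSCiEC it was 0.06 ± 0.49 (adjusted p = 0.915). *Crp* encodes C-reactive protein, a pentraxin, and is annotated on chromosome 1 from 172698055 to 172833031. It had 0 counts in 7 of the 8 culture libraries and 2 in the first 2D-iHepSC library, against 398 and 305 in Fetal-Liver and 18602 and 18080 in Adult-Liver.

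The comparison of 3D-iHEA with 3D-iHA asked what iECs added in 3D. No member passed the test in either direction, where 1.19% of all tested genes were higher and 1.07% lower in 3D-iHEA by edgeR, and DESeq2 also called no member. Marker lists differed between these groups: the endothelial markers summed to 1403 to 1572 CPM in 3D-iHA and 1040 to 1101 in 3D-iHEA, 7 cholangiocyte markers to 1416 to 1491 and 1768 to 1817, and the mucosal secretory markers to 2082 to 2388 and 2533 to 3314. Their part in the members' values was not tested. At an unadjusted p under 0.05, 1 member (*Hp*) was higher and 4 (*Lbp*, *Saa1*, *Saa3* and *Orm1*) were lower. *Saa3* had -0.46 ± 0.13 (adjusted p = 0.10 by edgeR), *Saa1* -0.60 ± 0.23 (adjusted p = 0.277), *Orm1* -0.33 ± 0.15 (adjusted p = 0.362) and *Lbp* -0.14 ± 0.05 (adjusted p = 0.267). *Hp* had 2.12 ± 0.59 (adjusted p = 0.0981 by edgeR), and without the first 3D-iHEA library the difference was -0.02. Without that library *Saa1* was called lower in 3D-iHEA, at -0.78 (adjusted p = 0.0351). Without the unnumbered library *Hp* was called higher, at 2.93, and *Lbp* lower, at -0.20 (adjusted p = 0.0255), so the calls turned on which 3D-iHEA library was used.

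In 2D, *Lbp* was the member that differed between 2D-iHepSCiEC and 2D-iHepSC. Some marker sums differed too: 4.18 to 4.45 CPM in 2D-iHepSC and 12.1 to 13.9 in 2D-iHepSCiEC for 7 fibroblast markers (with *Col1a1* at 93 and 93 counts against 441 and 234, and *Col1a2* at 1 to 3), and 524 to 528 and 474 to 477 for 7 endothelial markers. The sums of 7 cholangiocyte markers were 1390 to 1496 and 1263 to 1371, and those of 10 hepatocyte markers 755 to 764 and 735 to 741. The sums of 9 mucosal secretory and 8 macrophage markers differed through 1 gene each, *Lcn2* (7.24 to 7.40 and 25.5 to 26.3 CPM) and *Cd14* (64.1 to 68.4 and 86.4 to 88.9 CPM). Without that gene, the sums of these 2 lists had overlapping ranges. Their part in the members' values was not tested. *Lbp* was 1.39-fold higher with iECs (log2 0.48 ± 0.06, adjusted p = 5.38e-04 by edgeR), at 78.3 and 72.3 CPM against 53.1 and 53.2 CPM, where 4.26% of all tested genes were higher and 3.92% lower. *Saa1* had -2.65 ± 1.05 (adjusted p = 0.157), and it was 0.56 without the first 2D-iHepSC library. Without the second 2D-iHepSC library, *Saa1* and *Hpx* were called lower with iECs, at -3.49 and -1.60 (adjusted p = 0.0118 and 0.0398). The difference of the 2 iEC effects, 3D minus 2D, was called for *Lbp* only (log2 -0.62 ± 0.08, adjusted p = 1.85e-03 by edgeR), against 1.52% of all tested genes higher and 1.62% lower. It stayed between -0.68 and -0.55 when libraries were left out in turn. Human *LBP* reads from iECs that aligned to the mouse gene cannot be told apart from mouse reads in these counts.

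Compared with their source, 2D-iHepSC had 4 members higher and 1 lower than Fib among the 8 that passed the filter over all 14 libraries (all but *Saa2*), where 45.7% of 14121 tested genes were higher and 38.2% lower. Marker sums moved with this comparison, from 28699.7 to 30379 CPM in Fib against 4.18 to 4.45 in 2D-iHepSC for 7 fibroblast markers, 0.109 to 0.182 against 755 to 764 for 10 hepatocyte markers, 4.09 to 5.05 against 524 to 528 for 7 endothelial markers, 517 to 520.3 against 1390 to 1496 for 7 cholangiocyte markers and 7.45 to 8.36 against 92.5 to 95.4 for 8 macrophage markers. Their part in the members' differences was not tested. *Orm1* had 0 counts in both Fib libraries, so 2D-iHepSC was at least 53.1-fold higher, with the limit of 3 counts taken over the group. *Lbp* was 3.19-fold higher (log2 1.67 ± 0.10, adjusted p = 1.97e-10 by edgeR). *Saa3* had 1 count in Fib, and the ratio was 59.8 (95% counting interval 10.3 to 2400). *Saa1* was called higher (adjusted p = 0.0108 by edgeR), but not without the first 2D-iHepSC library (log2 0.87, adjusted p = 0.681) or the second Fib library (log2 3.33, adjusted p = 0.0610). *Hp* fell by 3.15 ± 0.84 on the log2 scale from 370 and 348 counts in Fib (adjusted p = 2.66e-03 by edgeR).

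The 2 liver tissues set the frame for these levels. *Orm2* and *Crp* passed the filter only through the Adult-Liver libraries, so their direction there was fixed by it, and 6 members passed without them. All 6 were higher in Adult-Liver than in Fetal-Liver, where 40% of all tested genes were higher and 43.8% lower. Erythroid and neutrophil markers moved the other way: 7 erythroid markers summed to 38713 to 38783 CPM in Fetal-Liver and 268 to 282 in Adult-Liver, and 6 neutrophil markers to 327 to 387 and 4.52 to 5.00, all of them over 3 counts in each library. Endothelial (401 to 423 and 191 to 200) and fibroblast markers (1993 to 3418 and 186 to 195) were also lower in Adult-Liver. Hepatocyte (14634 to 18012 and 258584 to 270006) and mucosal secretory markers (37.8 to 44.9 and 899 to 972) moved with the members. So did macrophage (294 to 343 and 541 to 552) and cholangiocyte markers (63.0 to 75.3 and 111 to 115). Their part in the members' differences was not tested. *Hp* was higher by 9.18 ± 0.63 (log2, adjusted p = 1.21e-09 by edgeR), and *Hpx* by 6.69 ± 0.20 (adjusted p = 2.89e-14). *Lbp* changed least of the 6, by 3.12 ± 0.09 (adjusted p = 3.29e-14). *Orm1* had 1 and 0 counts in Fetal-Liver and 45245 and 46828 in Adult-Liver. *Crp* and *Hpx* were thus present in Fetal-Liver when *Orm1* was at the limit of detection.

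Against Adult-Liver, 3D-iHA had 1 of these 6 members higher and 5 lower, where 45.7% of all tested genes were higher and 39.2% lower. The 10 hepatocyte markers summed to 1208 to 1239 CPM in 3D-iHA and 258584 to 270006 in Adult-Liver, and the mucosal secretory markers to 2082 to 2388 and 899 to 972. Cholangiocyte (1416 to 1491 and 111 to 115) and endothelial markers (1403 to 1572 and 191 to 200) were higher in 3D-iHA. Macrophage (149 to 158 and 541 to 552), erythroid (0.929 to 0.971 and 268 to 282), fibroblast (4.54 to 12.1 and 186 to 195) and neutrophil markers (0.0347 to 0.0357 and 4.52 to 5.00) were lower. The part of these markers was not tested. *Lbp* was the 1 that was higher, by 1.79 ± 0.08 (log2, adjusted p = 1.01e-11 by edgeR), or 3.45-fold after TMM scaling and 9.62-fold in CPM. *Saa1* was lower (log2 -3.37 ± 0.17, adjusted p = 2.34e-11 by edgeR), 10.3-fold after TMM scaling and 3.70-fold in CPM. On the same scales *Orm1* was 277-fold and 99.4-fold lower, *Hp* 898-fold and 322-fold lower, and *Hpx* 19393-fold and 7003-fold lower. *Crp*, with 0 counts in 3D-iHA, was at least 27950-fold lower after TMM scaling, which the filter fixed in direction. *Saa3* was lower after TMM scaling (log2 -0.44 ± 0.15, adjusted p = 0.0123 by edgeR) but 2.06-fold higher in CPM, so 1 of the 5 lower members turned with the scale, and this call was lost without the filter on low counts (adjusted p = 0.0792) and without the second 3D-iHA library (adjusted p = 0.132). Against Fetal-Liver, 3D-iHA had 4 of the 6 members higher (*Lbp*, *Saa1*, *Saa3* and *Orm1*) and 1 lower (*Hpx*), where 42.4% of all tested genes were higher and 43.2% lower. Here the erythroid markers summed to 0.929 to 0.971 CPM in 3D-iHA and 38713 to 38783 in Fetal-Liver, the neutrophil markers to 0.0347 to 0.0357 and 327 to 387, the hepatocyte markers to 1208 to 1239 and 14634 to 18012, and the mucosal secretory markers to 2082 to 2388 and 37.8 to 44.9. Cholangiocyte (1416 to 1491 and 63.0 to 75.3) and endothelial markers (1403 to 1572 and 401 to 423) were higher in 3D-iHA. Fibroblast (4.54 to 12.1 and 1993 to 3418) and macrophage markers (149 to 158 and 294 to 343) were lower. The part of these markers in the members' differences was not tested. *Lbp* was higher by 4.90 ± 0.10 (log2, adjusted p = 4.18e-16 by edgeR). *Hp* had -0.63 ± 0.60 (adjusted p = 0.336), and it was called lower, at -0.62, when either 3D-iHEA library was left out of the fit.

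Per kilobase of transcript, *Lbp* was first of the 9 members in all 4 culture conditions and seventh in Adult-Liver (the plot of levels per kilobase). In 3D-iHA it had 457 RPKM, 19.1 times the next member, *Saa3*. In 3D-iHEA it had 420 RPKM, 13.9 times the mean of *Hp*, but *Hp* was next only in the first library (7.49 times), and in the unnumbered library *Saa3* was next (24.7 times). Adult-Liver was led by *Hpx* with 4020 RPKM and *Hp* with 2238 RPKM, followed by *Orm1* with 1713 and *Crp* with 312, and *Lbp* had 47.5. Fetal-Liver was led by *Hpx* with 106 RPKM, and Fib by *Hp* with 8.85 and *Lbp* with 6.53. These ratios and ranks rest on the length of the first transcript. All exons together span 2606 bases against 555 for *Saa3*, 2478 against 609 for *Saa1* and 4831 against 2525 for *Lbp*. For *Orm1* both lengths are 775 bases, so the next member after *Lbp*, and its rank in Adult-Liver, depend on the length used.

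**Figure D4:**
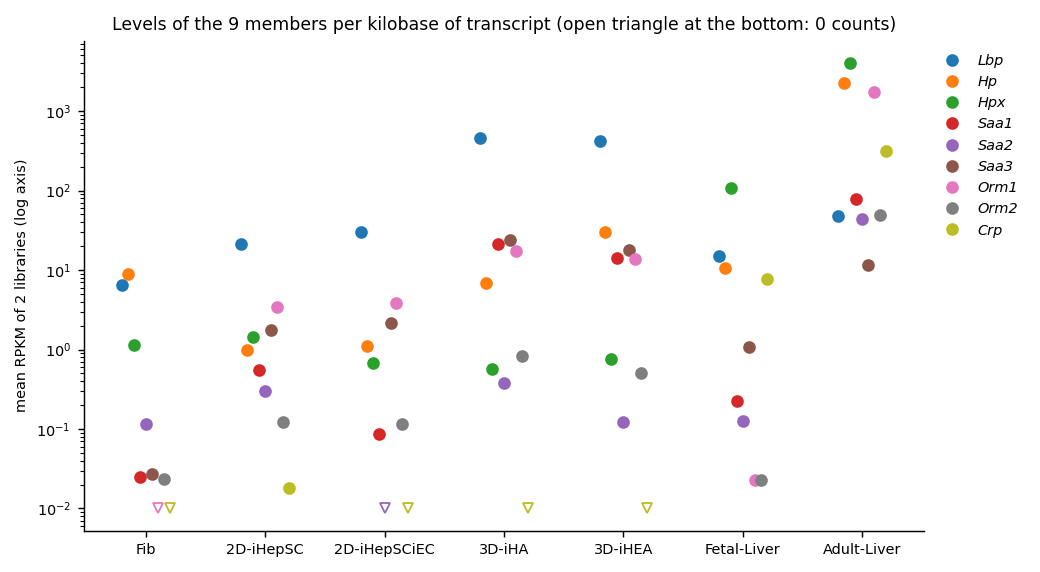
Mean RPKM of 2 libraries on a log axis for the 9 members in each condition, with open triangles for members with 0 counts in both libraries. *Lbp* is the highest point in the 4 culture conditions, with 457 RPKM in 3D-iHA, and *Hpx* is the highest in Fetal-Liver and Adult-Liver.

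Across the 14 libraries, which share conditions and differ in composition, the members fell into patterns rather than one. As a description, the log2 CPM of *Lbp* correlated with that of *Saa3* at Pearson's r = 0.91 and with *Saa1* at 0.74, but with *Hpx* at -0.22 and *Crp* at -0.18. *Hpx* and *Crp* correlated at 0.997. *Crp* and *Orm2* passed the filter only through Adult-Liver, and *Crp* was over the limit of detection in the liver tissues only. Their correlations and most similar genes therefore rest on the liver libraries and are no support for a pattern. The genes most like *Lbp* were *Rasal1*, *Phf11b* and *Slc18a1* (r = 0.987, 0.984 and 0.983), and those most like *Saa3* were *Sult1d1*, *Mob3b* and *H2-Q4* (0.992, 0.984 and 0.980). For *Saa1* they were *Arhgef37*, *Clec2h* and *Pigr* (0.978, 0.976 and 0.966). For *Hpx* they were *Itih4*, *Crp* and *Slc46a3* (0.999, 0.997 and 0.997), and for *Crp* the first was *Serpina1c*, with *Fabp1* and *Apoc4* next. *Hp* was most like *Amy1* (0.989), *Orm1* most like *Gpt2* (0.994) and *Orm2* most like *Tmem205* (0.988).

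Other positive acute phase proteins were described from a list of 21 genes, of which 11 passed the filter over the cultures. In 3D against 2D, 9 were higher and 1 was lower by edgeR (adjusted p under 0.05), with a median log2 fold change of 1.14, where 38.7% of all tested genes were higher and 37.2% lower and their median was 0.01. *Lcn2*, a siderophore-binding lipocalin, was higher by 3.66 ± 0.38, the complement genes *C3* and *Cfb* by 3.35 ± 0.58 and 3.02 ± 0.18, and *Cp*, which encodes the copper protein ceruloplasmin, by 2.23. *C3* had 7868 counts in the first 3D-iHEA library and 1393 to 2045 in the other 3D libraries, and its mean in CPM was 10.2 times that of 2D with that library and 5.47 times without it. *Lcn2* counts ranged from 216 to 926 in 2D and from 4247 to 7711 in 3D. *Itih3* was the 1 called lower, at 27 and 7 counts in 2D-iHepSC, 12 and 7 in 2D-iHepSCiEC and 3 to 6 in 3D, and it was not called in 3D-iHEA against 2D-iHepSCiEC (-0.83, adjusted p = 0.272 by edgeR). *Itih3* passed the filter only through the 2D libraries, so its direction was fixed by it. The fibrinogen genes *Fga*, *Fgb* and *Fgg* stayed at 0 to 73 counts in the cultures against 84458 to 147875 in Adult-Liver. Of the proteins whose plasma levels drop in the acute phase, 3 of the 6 tested were higher in 3D (*Ttr*, *Trf* and *Ahsg*) and 1 was lower (*Rbp4*), beside 38.7% and 37.2% of all tested genes. *Ahsg* had 2 to 25 counts in 2D and 18 to 47 in 3D. It passed the filter only through the 3D libraries, so its direction was fixed. *Ttr* rose by 5.37 ± 0.13, from 31 to 89 counts in 2D to 2252 to 2924 in 3D, whereas *Alb* had 3 to 20 counts in 3D, 210 in the first 2D-iHepSC library and 2 to 9 in the other 2D libraries. Its estimate of -2.20 ± 1.20 (adjusted p = 0.115 by edgeR) rested on that library, without which the mean level was 0.163 CPM in 2D and 0.386 in 3D.

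Among cytokines and receptors of the gp130 family, 9 of 12 listed genes were tested, and 4 were higher and 4 lower in 3D, near the 38.7% and 37.2% of all tested genes. The receptor genes *Lifr*, *Il6ra*, *Il11ra1* and *Il6st* (gp130) rose by 1.43 ± 0.06, 1.25 ± 0.09, 0.77 and 0.45 on the log2 scale. The cytokine genes *Il6*, *Lif* and *Clcf1* were lower (-2.72 ± 0.40, -1.75 ± 0.07 and -0.82), as was *Osmr*, the oncostatin M receptor (-0.64). *Il6* was scarce, with 15 to 33 counts in 2D and 1 to 6 in 3D. It passed the filter only through the 2D libraries, so its direction was fixed. Of 13 JAK, STAT and STAT3 target genes, 6 were higher and 4 lower, also near these shares. *Socs3*, a feedback inhibitor induced by STAT3, was higher by 1.12 ± 0.09 and *Stat3* by 0.54 ± 0.04, whereas *Pim1* was lower (-0.72 ± 0.07).

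Of 17 genes of IL-1, Toll-like receptor and NF-kB signaling, 16 were tested, and 7 were higher and 5 lower in 3D, near the 38.7% and 37.2% of all tested genes. The receptors that act with *Lbp* were among the former, with *Tlr4* at 1.12 ± 0.06 and *Cd14* at 0.72, from 1048 to 1554 *Tlr4* counts in 2D to 2538 to 2956 in 3D. Their partner *Ly96* had -0.03 and was not called. *Tlr2* was higher by 2.98 ± 0.09. The NF-kB subunit genes *Nfkb1*, *Nfkb2*, *Rel* and *Relb* were each lower, by -0.26 to -0.55, and *Rela* had 0.08 and was not called. *Il1a* was higher by 1.36 ± 0.24, from 18 to 27 counts in 2D to 43 to 72 in 3D. *Il1r1* was higher by 2.78 ± 0.64, at 18 to 29 counts in 2D, 91 and 66 in 3D-iHA and 423 and 52 in 3D-iHEA. *Myd88* and *Nfkbiz* were also higher (0.78 and 0.51), and *Tnfaip3* was lower (-0.86). *Il1b* had 0 or 1 count in every culture library. The macrophage markers *Adgre1* and *Marco* had at most 1 count in each culture library, and 4 or 5 of 8 macrophage markers were over 3 counts.

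Of 10 transcription factors of hepatic acute phase genes, 7 were tested in the cultures, and 4 were higher and 1 lower in 3D, beside 38.7% and 37.2% of all tested genes (the plot of related genes). *Cebpd* rose by 2.11 ± 0.10, from 443 to 874 counts in 2D to 2463 to 3482 in 3D. *Cebpa* rose by 2.08 ± 0.18, whereas *Cebpb* was lower (-0.38 ± 0.08) and *Hnf4a* had -0.11 and was not called. *Onecut1* had 0 counts in all 8 culture libraries and 605 and 678 in Adult-Liver, and *Foxa1* and *Foxa3* had 0 to 8. *Cebpd* was higher in 3D-iHA than in Adult-Liver (log2 3.42 by edgeR, called), whereas *Cebpa* was lower (-5.48). Of 12 listed receptors and partners of the members, 8 were tested, and 4 were higher and 2 lower in 3D. The tested genes include the member *Hpx*, and 3 of the 4 higher (*Cd14*, *Tlr2* and *Tlr4*) are also in the list of IL-1, Toll-like receptor and NF-kB genes. *Lrp1*, a receptor for haem bound to hemopexin, was higher in 3D by 1.68 ± 0.08, and *Hmox1*, which degrades haem, was lower (-1.81 ± 0.11). *Cd163*, the haptoglobin-haemoglobin receptor of macrophages, had at most 7 counts in the cultures.

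**Figure D5:**
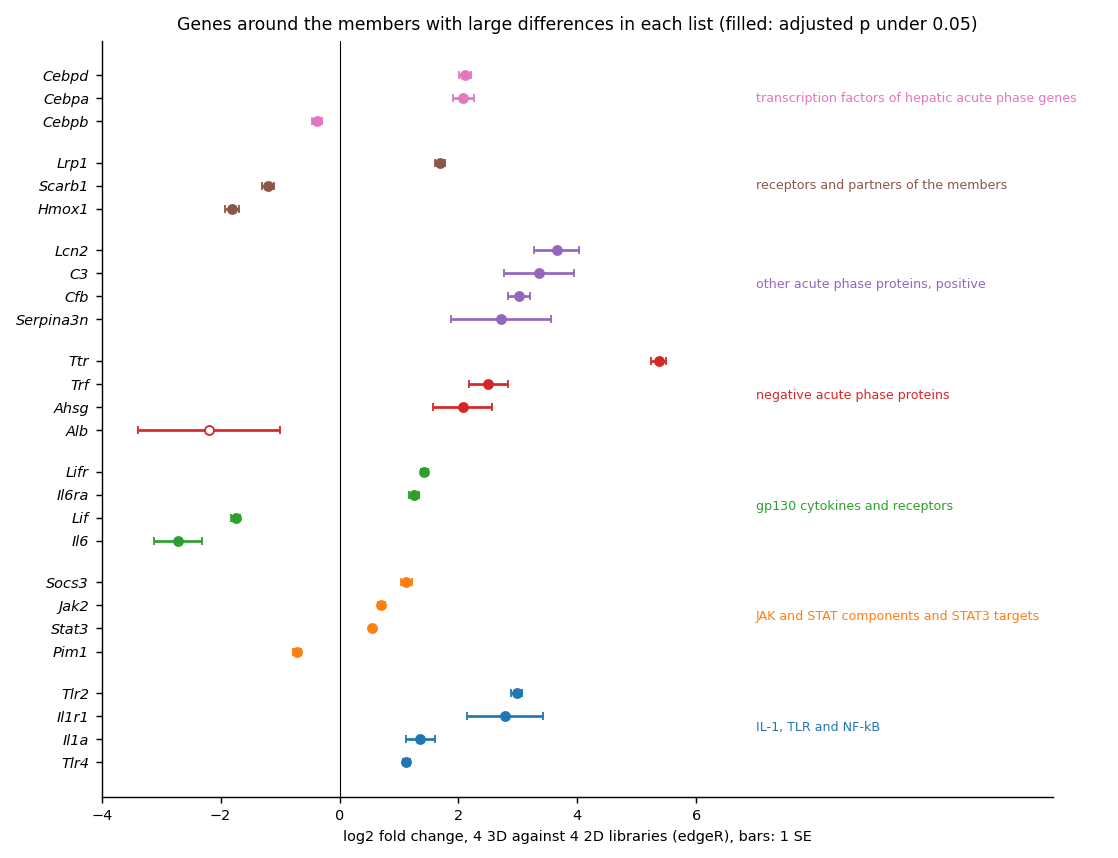
Log2 fold changes of 4 3D against 4 2D libraries, with bars of 1 SE, for genes with large differences in each of 7 lists, filled where the adjusted p was under 0.05. Receptor genes *Lifr* and *Il6ra* lie to the right and cytokine genes *Il6* and *Lif* to the left, and *Cebpd* and *Cebpa* lie near 2.1.

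Over all lists 65 genes other than the members were tested in the cultures. In 3D-iHEA against 3D-iHA, 3 of them were called, all lower in 3D-iHEA, where 1.07% of all tested genes were lower: the acute phase genes *Orm3* (-0.96) and *Mt1* (-0.32) and the apolipoprotein gene *Apoa1* (-0.42). *Orm3*, the third orosomucoid gene of the cluster, had 169 and 110 counts in 3D-iHA and 74 and 60 in 3D-iHEA. In 2D-iHepSCiEC against 2D-iHepSC, 12 were higher and 5 lower, where 4.26% and 3.92% of all tested genes were. *Lcn2* (1.80), *Cebpa* (0.81), *Osmr* (0.77), *Cp* (0.60) and *Cd14* (0.38) were among the former, and the latter were *Alb* (-5.20, with 210 counts in the first and 9 in the second 2D-iHepSC library), *Ttr* (-0.71), *Cebpd* (-0.32), *Hnf4a* (-0.29) and *Clcf1* (-0.29). The difference of the iEC effects, 3D minus 2D, was called lower for 8 (*Lcn2*, -1.61; *Cebpa*, -0.78; *Cp*, -0.74; *Socs3*, -0.48; *Il6ra*, -0.44; *Tnfaip3*, -0.43; *Cd14* and *Mt1*, both -0.39) and higher for 1 (*Hnf4a*, 0.40), where 1.62% and 1.52% of all tested genes were. The hepatocyte markers were uneven in the cultures: *Apob* had 8622 to 22874 counts and *Apoa1* 5697 to 12149, whereas *Serpina1a* and *Cyp2e1* had 0 in all 3D libraries. The 10 markers summed to 735 to 764 CPM in 2D, 1203 to 1268 in 3D and 258584 to 270006 in Adult-Liver, and their part in the members' differences was not tested.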

How the data were processed

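The deposited table holds whole-number read counts per gene for 14 mouse libraries. According to the authors, 150 bp paired reads were trimmed with Trimmomatic 0.36, aligned to GRCm38 (mm10) with HISAT2, and passed to Cufflinks, with HTSeq giving the counts. The use of strand and of reads matching several genes is not given in the sources used here. The 9 members and all gene lists were chosen with earlier results of these data known. Related genes are the fixed lists, of which up to 4 genes each were named by the largest change in 3D against 2D, and others were named after their values were seen. Of the genes so named, 1 was left out of the text and figures and is not reported here. Counts were tested with edgeR 4.0.16 in R 4.3.3 (TMM, quasi-likelihood test, Benjamini-Hochberg over all tested genes). The fits used the 8 culture libraries, or all 14 for comparisons with tissue and Fib. Genes needed a mean log2(count + 1) of at least 3. The tests were checked on simulated data. RPKM used the length of the first GENCODE transcript (release M21) of each gene. Alternatives were DESeq2 1.42.0, other filters and scalings, a block and leaving out libraries. Library numbers did not pair libraries: of 15 pairs of conditions, 1 had a correlation of deviations over 0.1.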

Additional observations from a re-analysis of the deposited data

Results flagged for a closer look

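*Hp* in the first 3D-iHEA library, at 72.0 CPM, lay far from the other 3 3D libraries, which had 8.63 to 10.1 CPM. *Saa1* and *Saa2* in the first 2D-iHepSC library, at 0.636 and 0.333 CPM, lay far above the other 3 2D libraries, which had at most 0.0569 and 0.0343 CPM. The threshold used for such gaps is passed by chance in about 1 of 20 groups. In the first 2D-iHepSC library, the excess over its partner, as a percent of the adult level, was 1.26 for *Saa1*, 1.13 for *Saa2*, 0.0357 for *Hpx* and 0.00262 for *Alb*, and its origin was not tested. The effect of iECs on *Lbp* differed between 3D and 2D, by -0.62 on the log2 scale.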

How the results depend on the processing

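Of the member values recomputed under the alternatives, 1178 kept their direction and side of the threshold, 30 gained a call, 11 lost one and 16 changed sign. *Lbp* kept its sign and its call under every alternative in both 3D against 2D comparisons. The cause of each change was not tested.

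Without a filter on low counts, 3D-iHEA against 3D-iHA had 1 member higher and 2 lower, 2D-iHepSCiEC against 2D-iHepSC had 3 lower, and the difference of iEC effects had 2 higher. With the stricter filter fewer members were tested (counts with tissue here include *Orm2* and *Crp* where they passed): 5 were higher in Adult-Liver than in Fetal-Liver, 4 were lower in 3D-iHA than in Adult-Liver, and 3 were higher and 1 lower in 3D-iHA than in Fetal-Liver. With only the 4 libraries of the comparison, 2 members were higher in 2D-iHepSC than in Fib. An alternative chosen after seeing the data left out the first 2D-iHepSC and the first 3D-iHEA library: 0 members were lower in 3D-iHA than in 2D-iHepSC and 1 was lower in 3D-iHEA than in 3D-iHA. There *Hp* was -0.017 in 3D-iHEA against 3D-iHA, *Hpx* -0.18 in 3D-iHEA against 2D-iHepSCiEC and -0.70 in 2D-iHepSC against Fib, *Saa1* 0.56 in 2D-iHepSCiEC against 2D-iHepSC, and the difference of iEC effects -0.45 for *Hp* and -1.34 for *Saa1*.

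When libraries were left out in turn, the members called lower ranged from 0 to 1 in 3D against 2D, in 3D-iHA against 2D-iHepSC and in 3D-iHEA against 3D-iHA, from 0 to 2 in 2D-iHepSCiEC against 2D-iHepSC, and from 1 to 3 in 3D-iHA against Fetal-Liver, where all 8 tested members had 2 lower. Those called higher ranged from 0 to 1 in 3D-iHEA against 3D-iHA and for the difference of iEC effects. The values that changed sign then ranged from -0.26 to 0.64 for *Hpx* in 3D-iHEA against 2D-iHepSCiEC, -0.017 to 2.93 for *Hp* in 3D-iHEA against 3D-iHA, and -0.70 to 0.90 for *Hpx* in 2D-iHepSC against Fib. In 2D-iHepSCiEC against 2D-iHepSC they ranged from -0.080 to 0.44 for *Hp*, -0.078 to 0.48 for *Orm1* and -3.49 to 0.56 for *Saa1*. For the difference of iEC effects they ranged from -0.16 to 2.79 for *Hp* and -1.15 to 2.90 for *Saa1*.

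The library numbers did not pair the libraries. With the replicate number as a block and the unnumbered library left out, 3D-iHEA against 3D-iHA had 1 member higher and 3 lower, 2D-iHepSCiEC against 2D-iHepSC had 2 lower, the difference of iEC effects had 1 higher, and *Hpx* was -0.12 in 3D-iHEA against 2D-iHepSCiEC. This fit changes both choices at once, so counts over all genes are set beside those without the unnumbered library alone. In 3D-iHEA against 3D-iHA, 160 genes were higher and 143 lower, with the block 324 and 293, and without that library alone 339 and 307. With no filter they were 429 and 452, and without both libraries named above 371 and 314. In 2D-iHepSCiEC against 2D-iHepSC, 571 were higher and 525 lower, with the block 1044 and 901, and without that library alone 1030 and 972, and 361 were higher with all 14 libraries in the fit. For the difference of iEC effects, 204 and 217 became 383 and 389 with the block, 391 and 400 without that library alone, 389 and 512 with no filter, and 134 were lower with all 14 libraries.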
